A study of Mus musculus with 6 samples.

Results

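The circadian clock genes Arntl (also called Bmal1), Clock, Per1, Per2, Per3, Cry1, Cry2, Nr1d1, Nr1d2 and Dbp were followed across 6 arrays of luminal mammary epithelial cells (MECs). They were taken as the 23 probe sets, of 45101 on the array, that the array's annotation assigns to exactly 1 of these 10 symbols, and no probe set names a clock gene together with another gene. Each mouse gave 1 array. The Runx1-null group was 3 mice of genotype MMTV-Cre;Runx1L/L;R26Y and the Runx1-WT group was 3 mice of genotype MMTV-Cre;Runx1+/+;R26Y, all adult virgin females of mixed B6/129/FVB background. Mice of both groups carried MMTV-Cre, in which the promoter of the mouse mammary tumor virus drives Cre mainly in luminal and in some basal cells, and R26Y, a reporter that turns on YFP where Cre has acted, so controls also expressed Cre and YFP. YFP+ luminal MECs (Lin−CD24+CD29lo) were sorted from dissociated glands, and their RNA was amplified before hybridization. The methods describe littermates without saying which of these mice came from one litter, and the time of day at which glands were taken is not given in the sources used here.

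In the mammalian clock, the protein products of Arntl and Clock pair as a transcription factor that binds E-boxes and turns on the Per and Cry genes, Nr1d1, Nr1d2 and Dbp. PER and CRY proteins accumulate, enter the nucleus and block that factor, which closes the main loop over about a day. NR1D1 and NR1D2 (REV-ERB alpha and beta) repress Arntl through elements that they share with the ROR activators, so the Arntl transcript peaks roughly opposite to Nr1d1 and Dbp in most tissues. DBP binds D-boxes and carries the rhythm to output genes. Transcripts of this kind oscillate in the mouse mammary gland too, and each array here holds a single moment of 1 mouse.

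The sequence around the genes' start sites was searched for the letters of regulatory elements of these loops, because the results below are ordered by these arms. RefSeq promoter windows (GRCm38.p6, 250 bases before to 50 after a start, 1 to 3 windows a gene) were found for 9 of the 10 genes, all except Per2. Both strands were searched for the E-box CACGTG, the related CACGTT, which reads AACGTG on the other strand, the D-box TTATGTAA and the REV-ERB/ROR element, in which AANT comes just before AGGTCA in one form and before GGGTCA in the other. Printed 5′ to 3′ on the gene's strand with matches in capitals, the windows of Nr1d1, Cry1, Cry2 and Per3 are given for the 250 bases before the start, and those of Per1 and Arntl for 30 bases around the match.
Nr1d1, chr11:98775378-98775627 (- strand): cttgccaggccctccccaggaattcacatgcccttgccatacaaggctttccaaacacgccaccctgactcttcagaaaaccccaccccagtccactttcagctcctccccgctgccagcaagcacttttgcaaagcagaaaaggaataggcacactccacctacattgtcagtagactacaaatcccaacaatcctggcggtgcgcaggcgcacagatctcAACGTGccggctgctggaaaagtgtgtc
Cry1, chr10:85185055-85185304 (- strand): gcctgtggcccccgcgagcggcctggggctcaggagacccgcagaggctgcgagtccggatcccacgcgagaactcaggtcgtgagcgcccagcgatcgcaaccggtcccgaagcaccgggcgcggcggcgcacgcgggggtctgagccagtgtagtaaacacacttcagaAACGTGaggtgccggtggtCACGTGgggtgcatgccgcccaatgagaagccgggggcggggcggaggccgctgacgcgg
Cry2, chr2:92434070-92434319 (- strand): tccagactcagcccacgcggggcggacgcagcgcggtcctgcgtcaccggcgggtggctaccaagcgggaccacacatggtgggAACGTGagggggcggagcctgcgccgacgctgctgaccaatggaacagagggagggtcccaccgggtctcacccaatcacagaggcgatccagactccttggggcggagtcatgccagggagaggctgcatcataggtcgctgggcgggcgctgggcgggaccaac
Per3, chr4:151044666-151044915 (- strand): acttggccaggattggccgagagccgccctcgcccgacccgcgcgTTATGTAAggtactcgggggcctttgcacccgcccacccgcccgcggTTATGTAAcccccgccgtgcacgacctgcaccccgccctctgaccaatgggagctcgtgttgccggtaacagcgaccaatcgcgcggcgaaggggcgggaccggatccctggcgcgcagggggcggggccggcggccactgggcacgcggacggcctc
Per1, chr11:69098771-69098800 (+ strand): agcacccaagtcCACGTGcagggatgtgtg
Arntl, chr7:113207528-113207557 (+ strand): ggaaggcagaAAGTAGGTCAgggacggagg
Nr1d1 carried AACGTG 28 bases before its start, Cry2 carried the same letters 166 bases before, and Cry1 carried AACGTG and CACGTG at 79 and 60 bases before. Per1 held CACGTG 166 bases before the start of the first of its 2 windows, and the second held no match. Per3 held TTATGTAA at 205 and at 158 bases before its start. Arntl held AAGTAGGTCA 28 bases after the start of the second of its 2 windows, and the first held no match. None of these matches overlapped another, and the windows of Clock, Nr1d2 and Dbp held none of the searched letters. Of 32851 windows of the same length over all genes, 7.15% held CACGTG, 4.68% CACGTT, 0.938% TTATGTAA, and 0.219% and 0.216% the REV-ERB/ROR element ending in AGGTCA and in GGGTCA. A match is only a description of these letters.

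No clock gene passed the test of Runx1-null against Runx1-WT mice. The brightest probe set stood for each gene, and all 10 passed the intensity filter, among 11426 genes tested with limma on log2 intensities. With limma and Benjamini-Hochberg adjustment over these genes, 0 of 10 clock genes were called at an adjusted p under 0.05, where 0% of all genes were called, and 0 had an unadjusted p under 0.05, where 1.96% (224 genes) did. In 0 of 10 genes did the 3 mice of one genotype all lie above the 3 of the other, which occurred in 5.65% of all genes tested (2.11% with Runx1-null and 3.54% with Runx1-WT mice higher). Of the 10 genes, 8 had a log2 difference (Runx1-null minus Runx1-WT) below 0 (6 under quantile normalization or median scaling, where Arntl and Clock changed sign) against 55.3% of all genes, with a median of −0.20 against −0.02 over all genes. Omitting Runx1-null mouse 1 moved this median to 0.024, and omitting Runx1-WT mouse 3 moved it to −0.40. Every clock gene had an adjusted p of 0.99965. Exact two-sided permutation p-values ran from 0.2 to 1, and 0.1 is the smallest that 3 mice against 3 allow. Leaving out Runx1-WT mouse 3 made the groups of Clock, Cry1, Nr1d2 and Dbp separate (4 of 10 genes, against 26.1% of all genes), leaving out Runx1-WT mouse 1 did so for Arntl (1 of 10, against 7.97% of all genes), and leaving out Runx1-WT mouse 2 or Runx1-null mouse 2 did so for Per3 (1 of 10 each, against 13.9% and 11.9%). Limma then still called 0 genes.

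**Figure D1:**
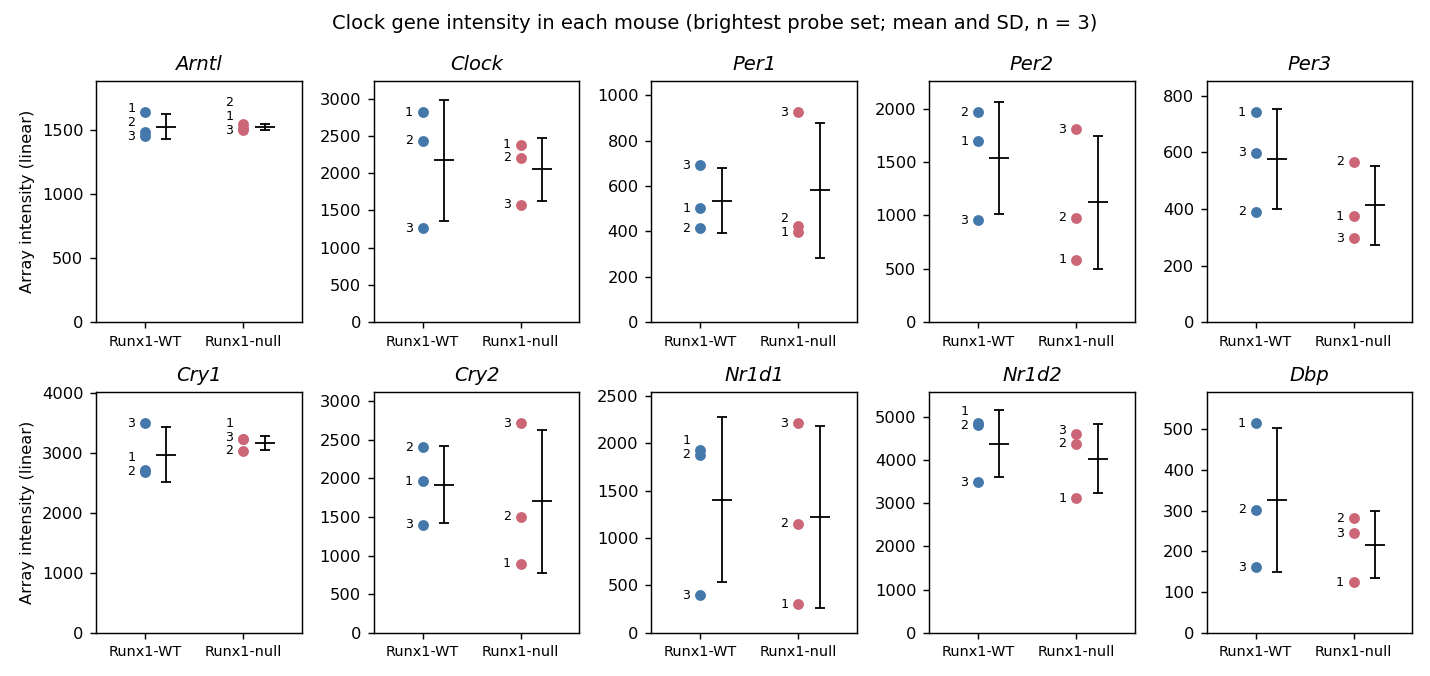
Linear array intensity of the brightest probe set of each clock gene in each mouse, numbered 1 to 3 within Runx1-WT (blue) and Runx1-null (red), with the mean and SD of each group (n = 3) beside the points. The genotypes overlapped in all 10 panels, and the points of Nr1d1 spread over 7.29-fold while those of Arntl spread over 1.13-fold.

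What the arrays did show was a wide spread between individual mice in one set of clock genes and a narrow one in others. The standard deviation of log2 intensity over the 6 arrays had a median of 0.49 over the 10 clock genes, against 0.26 over all genes tested. It was 1.25 for Nr1d1, at the 97.7th percentile of all genes, 0.72 for Dbp (91.2nd), 0.69 for Per2 (90.1st), 0.59 for Cry2 (86.7th), 0.50 for Per3 (81.8th), 0.49 for Per1 (81.3rd) and 0.44 for Clock (77.1st). Nr1d2 was near the middle of all genes at 0.27 (52.2nd), and Cry1 at 0.15 (21.4th) and Arntl at 0.06 (2.27th) were among the steadier genes.

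Nr1d1, a repressor of Arntl, varied most of the 10. Its intensity was 1934.5, 1881 and 399 in Runx1-WT mice 1, 2 and 3, and 303, 1149.9 and 2212 in Runx1-null mice 1, 2 and 3. The highest and the lowest mouse were thus both Runx1-null, and Runx1-WT mouse 3 lay close to the lowest. Group means were 1405 ± 871 (SD, n = 3) and 1222 ± 956 (SD, n = 3), and the log2 difference was −0.30 (SE 0.87, exact permutation p = 0.7) with a 95% interval of −2.37 to 1.76. A single mouse decided its sign. Omitting Runx1-WT mouse 3 gave −1.06, whereas omitting Runx1-null mouse 1 gave 0.49, and the difference was above 0 too when Runx1-WT mouse 1 (0.08) or the second of that group (0.06) was left out.

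Nr1d2, which encodes the related repressor REV-ERB beta, followed much the same order over a smaller range. It read 4855, 4807 and 3482 in the Runx1-WT mice and 3118, 4374 and 4595.5 in the Runx1-null mice. As for Nr1d1, Runx1-WT mouse 3 and Runx1-null mouse 1 were the lowest of the 6. The range was 1.56-fold and the log2 difference was −0.12 (SE 0.20, n = 3 per group, exact permutation p = 0.5), turning to 0.05 without Runx1-null mouse 1. A dimmer Nr1d2 probe set, which did not pass the filter, read 53.9 in Runx1-null mouse 1 and 70.3 to 87.1 in the other mice.

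Dbp, the D-box activator, was 515.5, 303 and 162 in Runx1-WT mice and 124, 282 and 245 in Runx1-null mice. The same pair of mice was lowest, while Runx1-WT mouse 1 stood well above all others. The range was 4.16-fold and the log2 difference −0.52 (SE 0.50, exact permutation p = 0.4, n = 3 per group), which became −0.11 on omitting Runx1-WT mouse 1 and −0.95 on omitting Runx1-WT mouse 3. A further Dbp probe set ordered the mice in the same way in 14 of the 15 pairs that 6 mice form, and its log2 difference was −0.45.

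Among the genes whose proteins repress the ARNTL and CLOCK pair, Per2 and Cry2 put the mice in nearly the same order, and Per1, Per3 and Cry1 in others. Per2 read 1693, 1964 and 955 in Runx1-WT mice and 584, 977 and 1806 in Runx1-null mice. The highest and the lowest values thus came from different genotypes, but Runx1-null mouse 3 lay between Runx1-WT mice 1 and 2, and the groups overlapped. The range was 3.37-fold, and the log2 difference of −0.54 (SE 0.45, exact permutation p = 0.5, n = 3 per group) ran from −0.96 when Runx1-null mouse 3 was omitted to −0.15 when Runx1-null mouse 1 was. Both other Per2 probe sets missed the filter, at 45.6 to 126.2 and 41.6 to 99.98, and Runx1-null mouse 1 was lowest in each.

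Cry2 read 1960.5, 2400.1 and 1398 in Runx1-WT mice and 895, 1499 and 2713.5 in Runx1-null mice. Again Runx1-null mouse 3 was highest and Runx1-null mouse 1 lowest, so that the Runx1-null mice spanned the Runx1-WT mice. The range was 3.03-fold and the log2 difference −0.28 (SE 0.41, exact permutation p = 0.7, n = 3 per group), or 0.11 without Runx1-null mouse 1.

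Cry1, the other cryptochrome, stayed within 1.30-fold, at 2713, 2685 and 3489.7 in Runx1-WT mice and 3231, 3029.6 and 3228 in Runx1-null mice. Its highest mouse, Runx1-WT mouse 3, was among the lowest for Nr1d1, Nr1d2, Dbp, Per2 and Cry2. The log2 difference was 0.10 (SE 0.14, exact permutation p = 0.4, n = 3 per group) with a 95% interval of −0.22 to 0.43.

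Per1, a period gene that also answers quickly to hormones and other stimuli, was 503, 414 and 691 in Runx1-WT mice and 396, 423 and 924 in Runx1-null mice. Mouse 3 of each genotype was its highest, and the other mice lay close together. The log2 difference was 0.04 (SE 0.38, exact permutation p = 0.9, n = 3 per group), and it fell below 0 on leaving out either Runx1-null mouse 3 (−0.36) or Runx1-WT mouse 2 (−0.13). Per3, the third period gene, read 741, 389.8 and 598 in Runx1-WT mice against 375, 566 and 297 in Runx1-null mice. Runx1-null mouse 2 lay above Runx1-WT mouse 2, and the log2 difference was −0.48 (SE 0.34, n = 3 per group, exact permutation p = 0.2). Per3 had 5 further probe sets. The order of the mice by its brightest set was shared by the 3 that passed the filter in 12, 10 and 9 of 15 pairs, so the order of mice by Per3 depended on the probe set, and their log2 differences were −0.31, −0.31 and −0.20. The remaining Per3 sets read 21.9 to 30.6, and below the intensity floor of 19.335 in all 6 mice.

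The positive arm of the loop varied least in Arntl and showed another order in Clock. Arntl read 1635, 1486 and 1452 in Runx1-WT mice and 1515, 1543 and 1498 in Runx1-null mice. All Runx1-null mice lay within the range of the Runx1-WT mice, and the log2 difference was −0.0034 (SE 0.14, exact permutation p = 1, n = 3 per group) with a 95% interval of −0.33 to 0.32. Under quantile normalization or median scaling of the arrays it was 0.04 or 0.09. A dimmer Arntl set, at 46.4 to 62.9, missed the filter. Clock read 2816, 2437 and 1261 in Runx1-WT mice and 2374, 2205 and 1576 in Runx1-null mice. Mouse 3 of each genotype was lowest, the reverse of Per1, and the log2 difference was −0.02 (SE 0.33, exact permutation p = 0.9, n = 3 per group), turning to 0.20 when Runx1-WT mouse 1 was omitted, to 0.10 for Runx1-WT mouse 2 and to 0.16 for Runx1-null mouse 3. The other Clock sets, all 3 of which passed the filter, gave −0.27, −0.01 and −0.62 and kept the order of the mice in 14, 12 and 13 of 15 pairs. Quantile normalization and median scaling moved the Clock difference to 0.01 and 0.07. Of the 23 clock probe sets 17 passed the filter, and none separated the genotypes, which 5.28% of all probe sets that passed did.

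The clock genes ordered the mice across the genotypes. By Nr1d1 the order from high to low was Runx1-null mouse 3, then mice 1 and 2 of Runx1-WT, then Runx1-null mouse 2, then Runx1-WT mouse 3 and last Runx1-null mouse 1. Runx1-WT mouse 1 was also highest for Dbp, Nr1d2, Clock, Arntl and Per3. Runx1-null mouse 1 was lowest for Nr1d1, Nr1d2, Dbp, Per1, Per2 and Cry2.

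**Figure D2:**
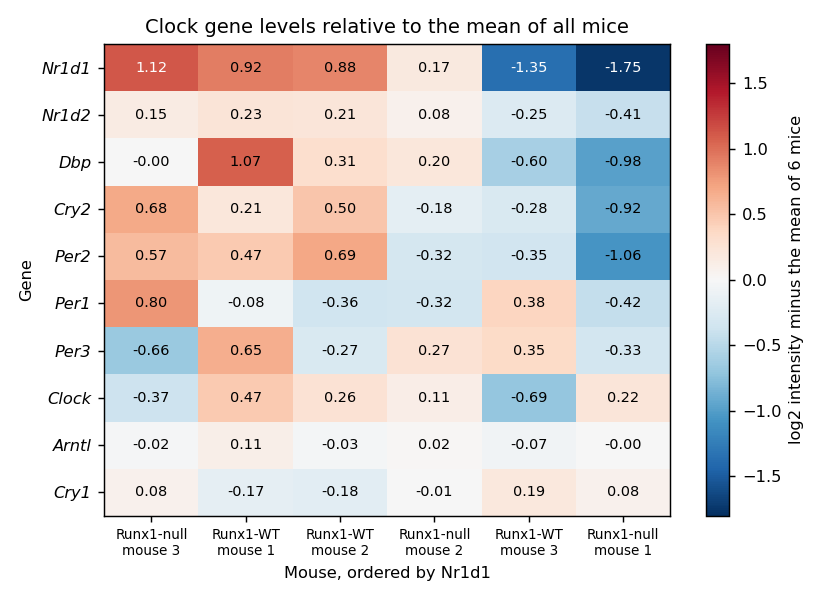
Log2 intensity of each clock gene (rows) in each mouse (columns, ordered by Nr1d1) minus that gene's mean over the 6 mice; red is above and blue below the mean. Runx1-WT mouse 3 and Runx1-null mouse 1 were below the mean in Nr1d1 (−1.35 and −1.75), Nr1d2, Dbp, Cry2 and Per2 and above it in Cry1 (0.19 and 0.08).

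Agreement between genes was counted as the number of mouse pairs, of 15, in which both genes put the same mouse higher. It is given as a description, since all genes come from the same 6 arrays. Nr1d1 shared its order with Cry2 in 14 pairs, with Per2 and Nr1d2 in 13 each, with Dbp in 12 and with Per1 in 11. Among the 11416 tested genes other than the clock genes, 3.90% shared the order of Nr1d1 in at least 14 pairs, 8.78% in at least 13 and 15.4% in at least 12. Per2 and Cry2 had the same order in 14 pairs, as did Nr1d2 and Dbp, and the share of all genes was not computed for these. Per3 shared only 7 pairs with Nr1d1, near an even split.

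Cry1 ran against most of the others. It put the mice in the opposite order to Dbp in 13 pairs, to Per2, Nr1d2 and Clock in 12 each, to Cry2 in 11 and to Nr1d1 and Arntl in 10 each. Among the tested genes other than the clock genes, 9.80% were opposed to Clock in at least 12 pairs, and 32.5% to Nr1d1 and 13.2% to Arntl in at least 10. Such shares were not computed against Dbp, Per2, Nr1d2 or Cry2, and the order of Cry1 rests on a range of 1.30-fold. Arntl, which is known to peak opposite to Nr1d1, was not opposed to it here. Both put the same mouse higher in 9 pairs, which 39.2% of those genes reached with Nr1d1. Arntl and Dbp did so in 10. Arntl and Clock shared their order in 11.

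**Figure D3:**
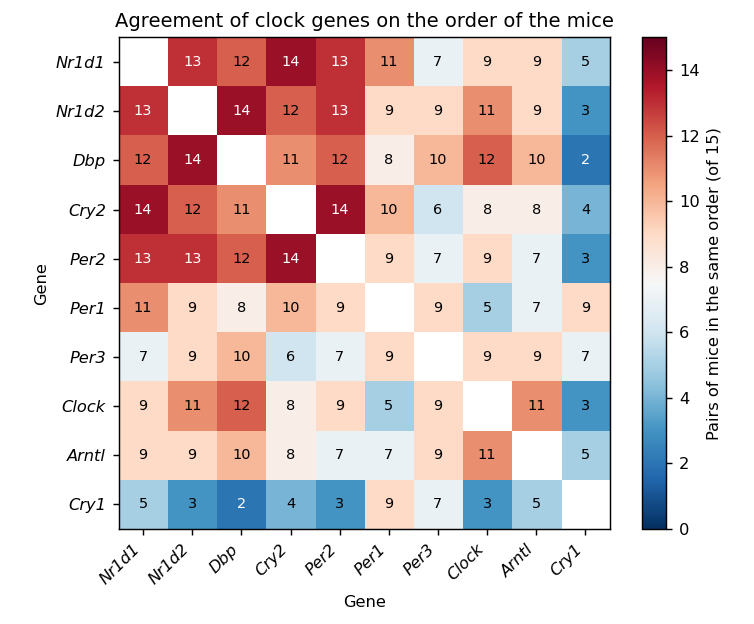
For each pair of clock genes (rows and columns), the number of the 15 mouse pairs in which both genes ranked the same mouse higher; dark red means the same order and dark blue the opposite order. Nr1d1, Nr1d2, Dbp, Cry2 and Per2 shared an order in 11 to 14 pairs, while Cry1 shared theirs in 2 to 5.

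A contrast of the 2 arms was also computed in each mouse, as the mean centred log2 level of Per1, Per2, Per3, Nr1d1, Nr1d2 and Dbp minus that of Arntl and Clock. It was 0.26, 0.13 and 0.07 in Runx1-WT mice 1, 2 and 3 and −0.93, −0.06 and 0.52 in Runx1-null mice 1, 2 and 3. Runx1-WT mice lay within the range of Runx1-null mice, which held both extremes, and group means were 0.16 ± 0.10 (SD, n = 3) and −0.16 ± 0.73 (SD, n = 3). Among these mice Arntl itself hardly moved, so the contrast followed Per, Nr1d and Dbp levels together with Clock.

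The order of the mice by Nr1d1, Per2 and Cry2 was also close to that of the main axis of variation over all genes. The first principal component of the 11426 genes, these 10 included, held 52.5% of the variance, and its scores were −11.1, −37.4 and 39.95 in Runx1-WT mice and 42.7, 3.47 and −37.6 in Runx1-null mice (the sign is arbitrary). Cry2 put the mice in exactly the opposite order to this component, in 15 of 15 pairs, as did 1.37% of all genes. Nr1d1 and Per2 were opposed in 14 pairs, as were 4.45% of all genes in at least as many, Nr1d2 in 12 and Dbp in 11. Cry1 had the same order in 11.

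Markers of other states and cell types also differed between the mice. A list of 12 DNA replication genes, added after the values had been seen, had mean log2 levels of 10.16, 9.57 and 11.07 in Runx1-WT mice and 11.39, 10.14 and 9.50 in Runx1-null mice. Its order was opposed by Cry2 in 14 pairs and by Nr1d1 and Per2 in 13 each, where 2.47% and 6.24% of all genes reached at least 14 and 13. The mean of the basal and myoepithelial markers (7 of 9 passed the filter) was opposed by Cry2 in 13 pairs and by Nr1d1 and Per2 in 12 each. Of all genes, 4.37% and 9.92% reached at least 13 and 12. This mean was highest in Runx1-null mouse 2 (10.62). Single markers ran from Krt17, opposed to Nr1d1 in 13 pairs, to Mylk and Trp63, opposed in 8 each. The summed intensity of these markers was 4979 to 10743 in Runx1-WT mice and 4793 to 13135 in Runx1-null mice, with none of the defining markers at 0. Clock and Arntl shared the order of the arrays' median intensity in 12 pairs each (11.2% of all genes did in at least as many). The 3′ minus 5′ log2 difference of the Gapdh control probe sets, a measure of RNA quality, was opposed by Per3 in 13 pairs (3.01% of all genes). The part of these measures in the order of the clock genes was not tested, and in sorted bulk cells a lower share of one kind of cell and less RNA per cell cannot be told apart.

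**Figure D4:**
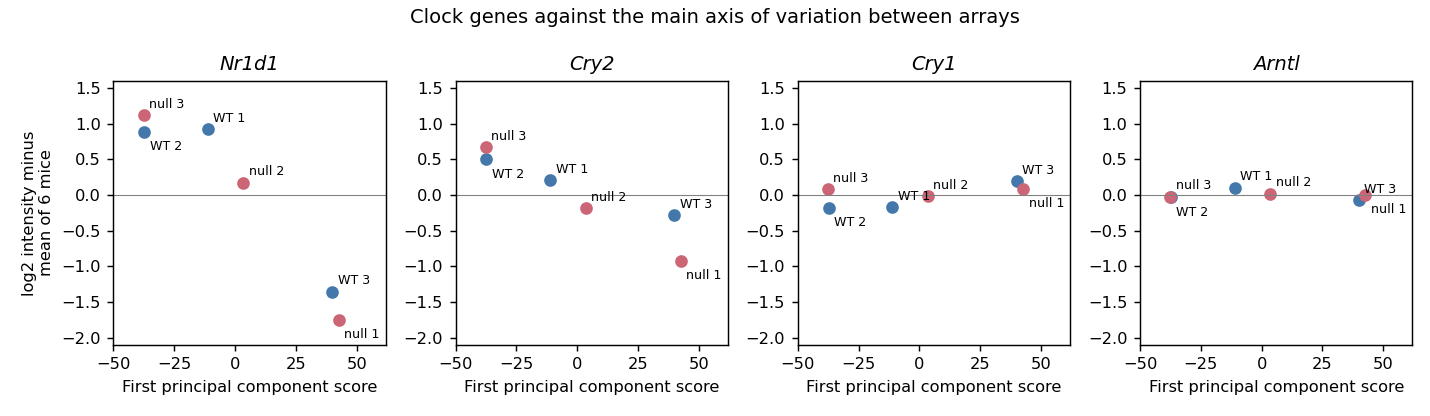
Log2 intensity of Nr1d1, Cry2, Cry1 and Arntl minus each gene's mean over the 6 mice (vertical axis) against the score of each array on the first principal component of all tested genes (horizontal axis, arbitrary sign), with Runx1-WT in blue and Runx1-null in red. Nr1d1 and Cry2 were lowest in Runx1-WT mouse 3 and Runx1-null mouse 1, which have scores of 39.95 and 42.7, Cry1 was above its mean in both, and Arntl stayed near 0.

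The mice carried animal numbers in a lower range (mice 1 and 2 of each genotype) and an upper range (mouse 3 of each). Genotype differences of the clock genes are given in each range, and how many of all genes changed sign between the ranges was not counted. Within the lower range (4 mice), a subset chosen after the data had been seen, the log2 difference was −1.69 (SE 0.61) in Nr1d1, −1.27 (SE 0.28) in Per2, −1.08 (SE 0.49) in Dbp and −0.91 (SE 0.28) in Cry2. Between the 2 mice of the upper range the differences were 2.47, 0.92, 0.60 and 0.96, above 0 in each of these genes. Nr1d2 (−0.39 and 0.40), Clock (−0.20 and 0.32) and Per1 (−0.16 and 0.42) changed sign in the same way, Cry1 the other way (0.21 and −0.11), Arntl was near 0 in both (−0.03 and 0.04), and Per3 was below 0 in both (−0.22 and −1.01).

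In the lower range the groups did not overlap in 7 of 10 clock genes (Clock, Per2, Cry1, Cry2, Nr1d1, Nr1d2 and Dbp), but with 2 mice against 2 this was so for 51.3% of all genes. Runx1-null mice were the lower ones in all of these but Cry1, which is 6 of 10 clock genes against 24.5% of all genes. Limma within these 4 mice called 0 genes, and the lowest adjusted p of the clock genes was 0.258, for Per2. The difference between the ranges was not tested. An animal number is only a name in the labels, and whether the ranges were litters, days or times of dissection is not given in the sources used here.

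**Figure D5:**
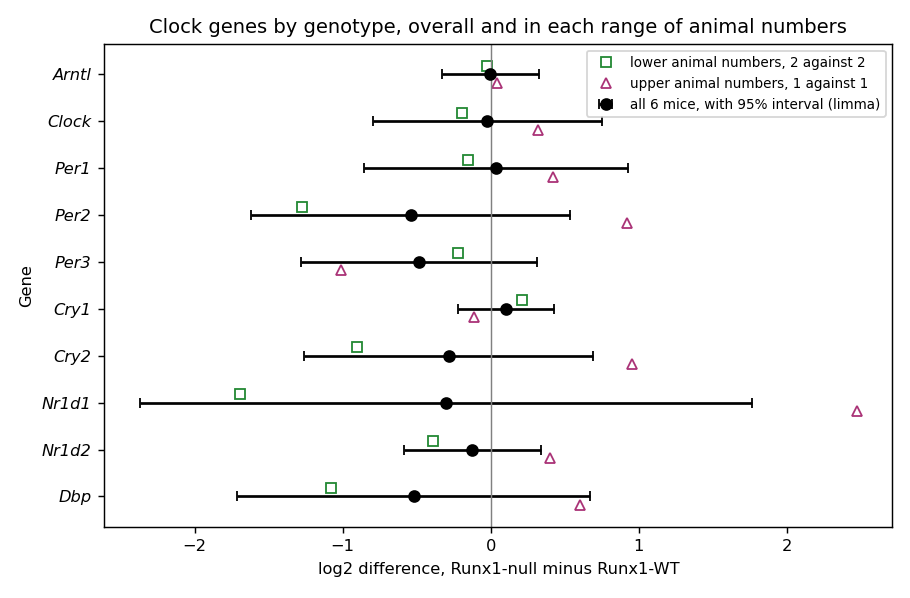
Log2 difference (Runx1-null minus Runx1-WT) of each clock gene over all 6 mice with its 95% limma interval (black circles and bars), in the 4 mice with lower animal numbers (green squares) and between the 2 mice of the upper range (purple triangles). All 10 intervals include 0, and the squares and triangles of Nr1d1 stand at −1.69 and 2.47.

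The wider clock network gave a like picture. Of 12 other clock transcription factors 10 were tested, 4 with a difference above and 6 below 0, a median of −0.11, and 0 called by limma. In 1 of the 10 the groups did not overlap, against 5.65% of all genes tested. This was Bhlhe41 (DEC2), a repressor that competes for E-boxes, at 889, 589.8 and 598 in Runx1-WT mice and 367, 571 and 521 in Runx1-null mice. All Runx1-null mice were lower, though by little for mouse 2, and the log2 difference was −0.51 (SE 0.26, limma adjusted p = 0.99965). The next by unadjusted p were Tef, a D-box activator related to Dbp (−0.38, SE 0.29), Arntl2, a paralogue of Arntl (0.40, SE 0.31), and Nfil3, a D-box repressor (−0.26, SE 0.34). The order of the mice by Nr1d1 was shared by Bhlhe40 in 15 of 15 pairs, and by Npas2, Rora and Nfil3 in 13 each. Of the tested genes other than the clock genes, 0.75% and 8.78% reached 15 and at least 13. Arntl2 shared it in 5 pairs, Ciart in 7, Hlf in 8, Bhlhe41 in 9 and Tef in 12. Timeless, whose product also acts at replication forks, was opposed to Nr1d1 in 14 pairs, as were 1.63% of those genes in at least as many. It ran from 80.5 in Runx1-null mouse 3 to 618 in Runx1-null mouse 1.

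Of 12 kinases and turnover factors of the clock proteins 10 were tested, 2 above and 8 below 0 (median −0.07), with 0 called. None separated the genotypes, which 5.65% of all genes did. Those with the smallest unadjusted p were Fbxw11 (−0.14, SE 0.10) and Gsk3b (−0.10, SE 0.08), which act in the marking of clock proteins for breakdown, the deubiquitinase Usp2 (−0.38, SE 0.30), and the casein kinase Csnk1a1 (−0.07, SE 0.06). Clock-controlled output genes, of which 10 of 11 were tested, split 5 above and 5 below 0 with a median of −0.02. This list shares Bhlhe41, Tef, Nfil3, Hlf and Usp2, 5 of its 10 tested genes, with the others, and its further gene by the naming rule was Wee1, a cell cycle kinase (0.20, SE 0.16).

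Genes induced by glucocorticoids, hormones that carry daily timing to tissues, and immediate early genes, which respond to dissociation and other stimuli, were given for comparison with Per1. All 9 genes of the glucocorticoid list, which also holds the receptor gene Nr3c1, were tested, 6 above and 3 below 0 with a median of 0.02. Limma called 0 of them. Mt2, a metallothionein, was lower in every Runx1-null mouse (log2 difference −0.20, SE 0.06, limma adjusted p = 0.99965), while the others by the naming rule overlapped: Fkbp5, a glucocorticoid receptor co-chaperone (0.84, SE 0.36), Tsc22d3 (−0.15, SE 0.21) and Dusp1 (0.08, SE 0.12). Thus 1 of these 9 genes separated the genotypes, against 5.65% of all genes. All 14 immediate early genes were tested, 11 above and 3 below 0 with a median of 0.10 and 0 called. Ier3 was higher in every Runx1-null mouse (0.33, SE 0.09, limma adjusted p = 0.99965), and Ccn1 (0.17, SE 0.15), Atf3 (0.28, SE 0.31) and Egr3 (0.14, SE 0.17) overlapped. Again 1 of the 14 separated the genotypes, against 5.65% of all genes. Klf9, Dusp1 and Fosb each shared the order of Nr1d1 in 14 pairs and Fos did in 13. Of the tested genes other than the clock genes, 3.90% and 8.78% reached at least 14 and 13. The other genes of these lists shared from 4 (Fkbp5, Nr3c1 and Egr3) to 12 pairs (Egr1 and Klf4), and the mean of the immediate early genes shared 11.

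Across the 6 arrays the genes most like Arntl were Ggnbp2, Taf1 and Arhgap17 (Pearson r = 0.99 each), over a narrow range, and 0.41% of all genes had an r of at least 0.9 with Arntl. Those most like Dbp were Atp6v0e, Ccn4 and Plrg1 (r = 0.99 each), and 2.65% of genes had an r of at least 0.9. These are descriptions over 6 arrays that share their amplification and normalization.

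Facts of the whole series bear on these values as follows. Median array intensity ran from 106 in Runx1-null mouse 3 to 163 in Runx1-WT mouse 1, which had 22.3% and 18.8% of values below the floor. The 3′ minus 5′ differences of the Gapdh and actin control probe sets were 0.61 and 0.74 in Runx1-null mouse 3. They were 0.46 to 0.55 and 0.44 to 0.52 in the other mice. Runx1-null mouse 3 was also highest for Nr1d1, Cry2 and Per1 and is the Runx1-null mouse of the upper range of animal numbers. The part of array quality in these values was not tested. Krt8 was high in every mouse (10459 to 12535), while Esr1 ran from 3055 to 6271, Pgr from 2865 to 7128 and Elf5 from 1119 to 3640. Epcam shared the order of Nr1d1 in 14 pairs, Krt18, Pgr and Foxa1 in 12 each, and Elf5 and Kit in 7 each. Of the tested genes other than the clock genes, 3.90% and 15.4% reached at least 14 and 12. The part of luminal markers in the clock order was not tested. Ptprc, a leukocyte marker, ran from 18.3 to 205. Summed leukocyte markers (6 of 9 passed the filter) were 999 to 5176 in Runx1-WT mice, highest in mouse 3, and 824 to 1673 in Runx1-null mice. Summed endothelial markers (6 of 7 passed) were lower in every Runx1-null mouse, at 836 to 1187 against 1336.5 to 1981. Taken singly, 2 of the 6 tested, Kdr and Tek, were lower in every Runx1-null mouse, as were 3.54% of all genes. Pecam1, Vwf, Emcn and Tie1 overlapped. The 6 Runx1 probe sets did not separate the genotypes, and where their probes lie with respect to the floxed exon is not known here, so they check no label.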

How the data were processed

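RNA of sorted YFP+ luminal MECs was amplified by the authors (NuGEN Ovation V2) and measured on Affymetrix Mouse Genome 430 2.0 arrays, 1 per mouse. The deposited values are linear intensities that the authors normalized across arrays with dChip; its version and model are not given in the sources used here. Such values depend on probe affinity, so levels were not compared between genes. Of 45101 probe sets, 34958 were paired with 1 symbol, 932 with several and 9211 with none. A floor of 19.335, the 20th percentile of all values, was applied before log2, and the brightest probe set stood for its gene. Of 18194 genes, 11426 with a mean of at least 104 (the 40th percentile) were tested in R 4.3.3 with limma 3.58.1 (lmFit and trended eBayes), calling genes at a Benjamini-Hochberg adjusted p under 0.05, and single genes by exact two-sided permutation tests. Precision is limited by the number of arrays, which hold no counts. The clock genes, the lists and the tests were chosen with earlier results of these data known. Named genes were the 10 clock genes, the 4 genes of smallest unadjusted p in each clock, glucocorticoid and immediate early list, markers that define a cell type, Runx1, the 3 most correlated with Arntl and with Dbp, and genes singled out after their values were seen (those named for their order against Nr1d1). Alternatives were other filters, normalizations, a pseudocount, all probe sets, each mouse left out, the animal-number range as a block, eBayes without trend and the methods' t-test. The code was tested on simulated data. Some genes of the lists are not reported here.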

Additional observations from a re-analysis of the deposited data

How the results depend on the processing

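Limma called 0 genes and 0 clock genes under every alternative run, and the methods' t-test with Benjamini-Hochberg adjustment called 0 as well. At an unadjusted p under 0.05, limma gave 224 genes, the methods' t-test 323, and limma 535 with no filter, 351 over all probe sets, 122 with median scaling, 70 to 789 with 1 mouse left out and 1812 within the lower animal numbers. None of the 224 is a clock gene. Per2, Cry2 and Nr1d1, 3 of the 10 clock genes, are among the 1812 of 11426 genes in the lower range, a subset chosen after the data had been seen. Of the 100 alternative values of single clock genes that could differ from the reported ones, 83 kept their direction and 17 turned it; the other 59, from settings that leave the difference itself as it is, could not turn. Quantile normalization gave Arntl 0.036 and Clock 0.012, median scaling gave Arntl 0.088 and Clock 0.068, and the lower range alone gave Per1 −0.16. With 1 mouse left out, log2 differences ran from −0.038 to 0.048 for Arntl, −0.37 to 0.20 for Clock, −0.36 to 0.26 for Per1, −0.96 to −0.15 for Per2, −0.74 to −0.27 for Per3, 0.039 to 0.23 for Cry1, −0.69 to 0.11 for Cry2, −1.06 to 0.49 for Nr1d1, −0.28 to 0.0498 for Nr1d2 and −0.95 to −0.11 for Dbp, and the median over the 10 clock genes from −0.40 to 0.024. Clock genes whose groups did not overlap numbered 0 to 4 with 1 mouse left out and 7 in the lower range. Median scaling moved the median over all genes from −0.02 to 0.07, that of the kinases and turnover factors to 0.024 and that of the glucocorticoid list to 0.11. The cause was not tested beyond this shift. No paired analysis was possible because the labels give no replicate numbers that the genotypes share. With 3 mice per group, a difference in Nr1d1 anywhere within −2.37 to 1.76 lies in its interval.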
